A study of Mus musculus with 12 samples.

Results

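Brown and beige fat genes and uncoupling proteins of the mouse, 9 genes in all, were followed here among the 23042 entries of each expression table. The uncoupling proteins were Ucp1, Ucp2 and Ucp3, and the brown fat genes were Cidea and Elovl3. The others were the regulators Prdm16 and Ebf2, and Tmem26 and Tbx1, which are used to mark beige fat. The 9 genes were listed by name and not by how they behaved, but with earlier results of these data known. Each matched 1 entry in both tables. The libraries were made from white adipose tissue (WAT), here the epididymal depot (EWAT), and from heart ventricles of WT mice and of MED13cTg littermates, which overexpress in the heart MED13, a subunit of the kinase module of the Mediator complex. Each genotype had 3 mice in each tissue, which gave 12 libraries. All mice were C57BL/6 males, labelled as 6 weeks old, on normal chow and fed ad libitum, and the promoter that drives the transgene was not given in the sources used here. The question was whether MED13 in the heart changes the expression of metabolic genes in fat and heart, and these 9 genes were compared between the genotypes in both tissues. Levels are in FPKM, a measure scaled to transcript length and to the mapped fragments of a library, so that genes of unequal length can be compared.

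Brown adipocytes burn fuel to make heat. UCP1, the defining protein of brown and beige adipocytes, lets protons flow back across the inner mitochondrial membrane without making ATP. UCP2 and UCP3 belong to the same family of mitochondrial carriers: UCP2 is made in many tissues and in immune cells, and UCP3 mainly in skeletal muscle, heart and brown fat. CIDEA sits on lipid droplets and ELOVL3 lengthens fatty acids, and both are abundant in brown fat. PRDM16 is a transcriptional coregulator and EBF2 a transcription factor of brown and beige fat cells and their precursors. Beige adipocytes arise within white depots, where TMEM26, a membrane protein, and TBX1, a T-box transcription factor, have served as their markers.

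The promoters of the 3 uncoupling genes are shown because these genes, although of one family, stood at very different levels in the same libraries. They come from RefSeq on build GRCm38.p6, run from 250 bases before to 50 bases after the gene start on the plus strand, and were available for 6 of the 9 genes. Capitals mark AGGTCA, the half-site recognised by many nuclear receptors, searched on both strands.
Ucp1, chr8:83290098-83290397: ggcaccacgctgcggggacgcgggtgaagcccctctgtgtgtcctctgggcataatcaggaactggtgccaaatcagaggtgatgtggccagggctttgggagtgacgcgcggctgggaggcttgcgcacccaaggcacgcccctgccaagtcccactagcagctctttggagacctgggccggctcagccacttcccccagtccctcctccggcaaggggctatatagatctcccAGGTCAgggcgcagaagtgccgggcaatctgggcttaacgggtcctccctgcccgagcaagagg
Ucp2, chr7:100493108-100493407: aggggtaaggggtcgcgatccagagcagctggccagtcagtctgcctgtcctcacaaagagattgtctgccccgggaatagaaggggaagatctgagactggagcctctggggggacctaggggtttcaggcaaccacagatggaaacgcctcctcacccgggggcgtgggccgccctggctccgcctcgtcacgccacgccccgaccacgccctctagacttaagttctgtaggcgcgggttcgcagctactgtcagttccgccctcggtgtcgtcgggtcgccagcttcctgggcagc
Ucp3, chr7:100472741-100473040: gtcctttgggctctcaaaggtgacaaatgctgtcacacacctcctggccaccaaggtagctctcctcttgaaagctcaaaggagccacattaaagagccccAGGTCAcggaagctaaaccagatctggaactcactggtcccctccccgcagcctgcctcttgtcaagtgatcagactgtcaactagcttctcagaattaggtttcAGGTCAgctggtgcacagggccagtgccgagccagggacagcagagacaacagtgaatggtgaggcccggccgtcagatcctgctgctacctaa
The Ucp1 window held 1 half-site, starting 14 bases before the gene start, and the Ucp3 window held 2, starting 149 and 44 bases before it. The Ucp2 window held 0. Of 32851 mouse promoter windows of the same length, 16.3% held at least 1 half-site and 1.81% held 2 or more. The windows held 15 (Ucp1), 21 (Ucp2) and 5 (Ucp3) CpG dinucleotides, against a median of 7 over all windows. A match describes the letters only, and binding was not measured.

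The labels were first checked against the transgene and against tissue markers. Med13 stood at 10.6 to 13.1 FPKM in WT ventricles and at 181 to 263 FPKM in MED13cTg ventricles, 18.4-fold higher by the ratio of means (log2 fold change 4.08 ± 0.17 SE, limma adjusted p = 0.000281), and at 7.84 to 11.0 FPKM in all 6 WAT libraries. The WAT libraries were not alike. The summed FPKM of 13 adipocyte markers was 13876, 32954 and 22554 in WT replicates 1 to 3 and 1702, 82121 and 17919 in MED13cTg replicates 1 to 3. The sum of 18 markers of the epididymis, the duct to which this depot is attached, ran from 92878 to 120792 in the WT libraries and MED13cTg replicate 3, and was 15173 in MED13cTg replicate 1 and 315 in replicate 2. The sum of 9 markers of testis germ cells was 17057 in MED13cTg replicate 1 against 7.46 to 380 in the other 5. Rank correlations between WT libraries were 0.958 to 0.972, those of MED13cTg replicate 1 with the others 0.350 to 0.494, and those of replicate 2 at most 0.852. The WAT differences are therefore also given without MED13cTg replicates 1 and 2 where the gene could still be fitted. This choice was made after seeing the data and leaves 1 MED13cTg library, so only the log2 fold change is given. The part of these markers in the results was not tested. The 6 ventricle libraries were alike, with rank correlations of 0.944 to 0.969. Absolute depth is unknown from FPKM, and depth relative to WT replicate 1, read from the lowest values, was 0.712 to 1 in WAT and 0.908 to 1.02 in ventricles.

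In WT WAT the 9 genes spanned a wide range of levels. Ucp2 led at 209.6 ± 20.4 FPKM (SD, n = 3), higher than 96.8% of entries by its mean over all 6 WAT libraries. Far below it came Ucp3 at 5.70 ± 2.69, Cidea at 3.80 ± 1.70, Prdm16 at 2.22 ± 0.36, Tbx1 at 1.13 ± 0.35 and Ebf2 at 0.793 ± 0.202 FPKM. Ucp1 at 0.624 ± 0.343, Tmem26 at 0.318 ± 0.091 and Elovl3 at 0.117 ± 0.067 FPKM closed the list. Of neighbours in this order, Ucp2 and Ucp3, Prdm16 and Tbx1, and Tmem26 and Elovl3 were separated in the WT mice, and the ranges of the other neighbours overlapped.

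**Figure D1:**
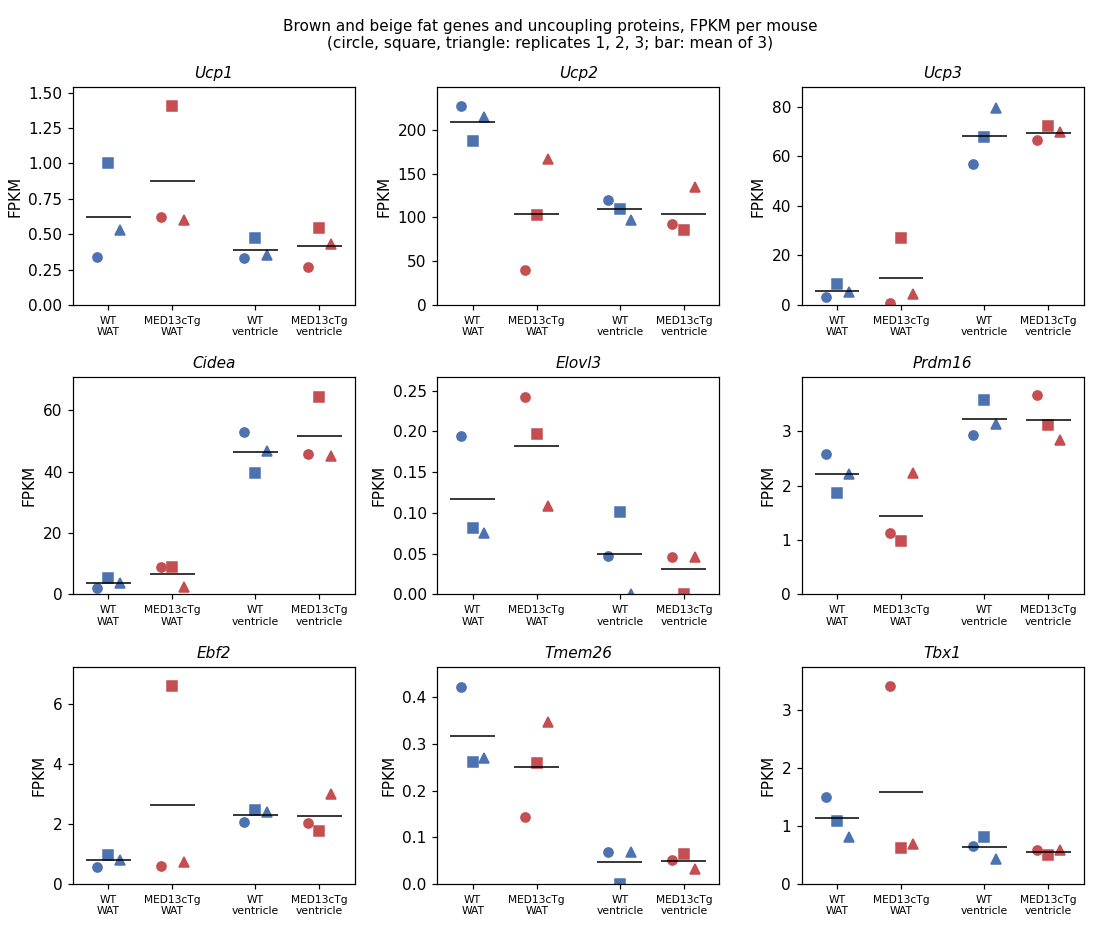
FPKM of each of the 9 genes (vertical axes, linear, each with its own scale) in WT (blue) and MED13cTg (red) mice, in WAT and in ventricles; each symbol is 1 mouse and the bar is the mean of 3. Ucp2 in WAT is the 1 gene whose MED13cTg mice all lie below the WT mice, while Ucp1 stays at or under 1.41 FPKM in all 12 libraries.

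Between genotypes in WAT, 6 of the 9 genes averaged 1 FPKM or more over all libraries and were compared with limma on log2(FPKM + 1) beside all 14967 such genes. At an adjusted p of 0.05, 0 of the 6 passed, and 0 had an unadjusted p under 0.05. Over all genes tested 0.0134% passed, which is 2 genes, and 187 of the 14967 had an unadjusted p under 0.05. Without overlap between genotypes, 1 of the 6 was lower in MED13cTg WAT (Ucp2) and 0 were higher, against 7.8% and 4.88% of all genes tested. The p-values measure the spread between these 3 mice per group, and 3 against 3 allow no exact permutation p below 0.1. Fold changes on this scale understate those of genes with low levels.

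Ucp2 was the uncoupling protein without overlap between the genotypes. It stood at 227, 187 and 214 FPKM in WT WAT and at 40.4, 103 and 167 FPKM in MED13cTg WAT. Every MED13cTg mouse lay below every WT mouse, but the MED13cTg mice spread widely, with replicate 3 close below the lowest WT mouse and replicate 1 far below it. The mean was 103 ± 63.1 FPKM in MED13cTg WAT, 0.493 of the WT mean, and the log2 fold change of -1.23 ± 0.54 (SE) did not pass (limma adjusted p = 0.738, unadjusted p = 0.0638). In bulk tissue fewer cells of a type and less RNA per cell cannot be told apart. Without MED13cTg replicates 1 and 2 the log2 fold change was -0.33, and with 1 library left out at a time it ran from -1.68 to -0.67. In the same libraries, 10 macrophage markers summed to 137 FPKM in replicate 1 and 728 in replicate 2, against 222 to 444 in WT, with 10 of 10 above all WT mice in replicate 2. The sum of 6 mesothelium markers was 51.1 and 103 against 171 to 198 in WT, but in replicate 2 only 2 of the 6 were below all WT mice, the other 4 were above them, and in replicate 1 it was 4 below and 1 above. The sum of 5 smooth muscle markers was 184 in replicate 1 and 362 in replicate 2, against 586 to 773 FPKM in WT. Of the 5, 5 were below all WT mice in replicate 1, and 4 were below and 1 above in replicate 2. In replicate 3 that sum was 799 FPKM, above all WT mice. Of the 18 epididymis markers, 16, 18 and 7 were below all WT mice in replicates 1 to 3, and 0, 0 and 2 were above. The part of these cells was not tested.

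Ucp3 followed another pattern. It was at 3.33, 8.63 and 5.14 FPKM in WT WAT and at 0.808, 26.9 and 4.49 FPKM in MED13cTg WAT, so that the lowest and the highest of the 6 libraries were both MED13cTg. The log2 fold change was 0.04 ± 1.02 (limma adjusted p = 0.989), and its sign turned with the library left out, from -1.01 without MED13cTg replicate 2 to 0.96 without replicate 1, and it was -0.21 without both. Ucp3 stood in the same order over the 6 libraries as the sum of the adipocyte markers, and the macrophage and endothelial sums had that order too. Its Pearson correlation on log2(FPKM + 1) was 0.949 with the adipocyte sum, 0.969 with the macrophage sum and 0.971 with the endothelial sum. Which cells carried Ucp3 was not tested. Per 1000 FPKM of the adipocyte markers Ucp3 was 0.240, 0.262 and 0.228 FPKM in WT and 0.475, 0.328 and 0.251 in MED13cTg WAT. On that scale the libraries lay within 0.228 to 0.475, where Ucp3 itself ranged from 0.808 to 26.9 FPKM.

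Ucp1, the thermogenic carrier itself, was near the floor of the WAT libraries. It was at 0.339, 1.00 and 0.528 FPKM in WT mice against 0.618, 1.41 and 0.600 FPKM in MED13cTg WAT. The genotypes overlapped, with replicate 2 the highest in each. Its mean was under 1 FPKM, and fitted with no filter its log2 fold change was 0.20 ± 0.25 (limma adjusted p = 0.756).

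Summed over the 3 genes, uncoupling protein transcripts came to 231, 197 and 220 FPKM in WT WAT and to 41.8, 131 and 172 FPKM in MED13cTg WAT. Ucp2 made up 95.1% to 98.4% of that sum in 5 of the 6 libraries. In MED13cTg replicate 2, the library with the most adipocyte marker RNA, Ucp2 was 78.4% and Ucp3 20.5% of the sum. Ucp1 was at most 1.48% of the sum, in MED13cTg replicate 1.

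**Figure D2:**
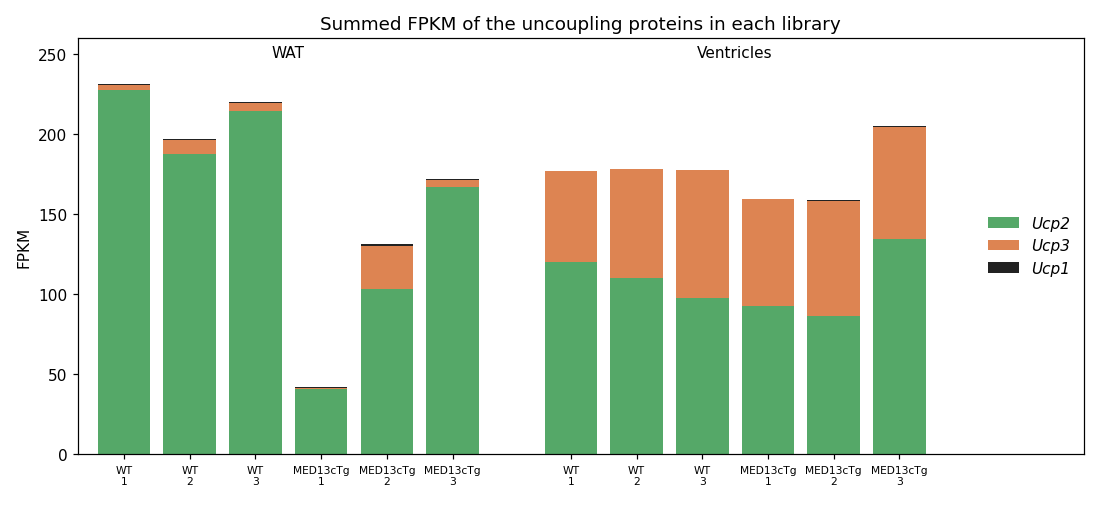
FPKM of Ucp2 (green), Ucp3 (orange) and Ucp1 (black) stacked for each library, WAT on the left and ventricles on the right. Ucp2 makes up 78.4% or more of each WAT bar, and the bar is lowest, at 41.8 FPKM, in MED13cTg replicate 1, while ventricle bars stay between 159 and 205 FPKM with a large share of Ucp3.

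Ucp2 and Ucp3 lie next to each other on chromosome 7. On mm9, as the tables give it, Ucp3 spans bases 107621500 to 107634998 and Ucp2 bases 107641854 to 107650682, with 6855 bases between them and no overlapping entry. Their levels did not run together in WAT: in MED13cTg replicate 2 Ucp3 was the highest of the 6 libraries and Ucp2 the second lowest. Ucp1 lies on chromosome 8, bases 85814247 to 85822355.

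Of the brown fat effector genes, Cidea averaged over 1 FPKM in WAT and Elovl3 did not. Cidea was at 2.10, 5.51 and 3.78 FPKM in WT mice against 9.0, 8.94 and 2.39 FPKM in MED13cTg WAT. MED13cTg replicates 1 and 2 stood above all WT mice, and replicate 3 stood between WT replicates 1 and 3. The log2 fold change was 0.60 ± 0.55 (limma adjusted p = 0.738), and it turned to -0.44 without MED13cTg replicates 1 and 2. With 1 library left out at a time it ran from 0.32 without WT replicate 1, and 0.34 without MED13cTg replicate 1 or 2, to 1.12 without MED13cTg replicate 3 (limma unadjusted p = 0.0393, adjusted p = 0.280). It was 0.17 with limma array weights, which give less weight to libraries that vary more. The fit without MED13cTg replicate 3 held only replicates 1 and 2 of that genotype. In that fit 2417 of all 15025 genes tested had a limma unadjusted p under 0.05. Ucp2 had a lower p there than Cidea (limma unadjusted p = 0.0171, adjusted p = 0.200).

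The libraries with high Cidea differed in their makeup. Per 1000 FPKM of adipocyte markers Cidea was 0.152, 0.167 and 0.168 FPKM in WT, and 5.29, 0.109 and 0.133 in MED13cTg replicates 1, 2 and 3. Replicate 2, with the highest adipocyte sum, was the lowest on that scale, and replicate 1, with the lowest adipocyte sum, the highest. All of the genes followed here were highest in replicate 1 on that scale, so this rank is not particular to Cidea. Replicate 1 also had the highest germ cell sum. The part of the germ cells was not tested. The locus, on chromosome 18 at bases 67480863 to 67532930 of mm9, overlaps B430212C06Rik, whose reads may be shared.

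Elovl3 was between 0.0756 and 0.194 FPKM in WT WAT and between 0.109 and 0.242 FPKM in MED13cTg WAT, with overlap. Fitted with no filter, its log2 fold change was 0.08 ± 0.07 (limma adjusted p = 0.740). Its locus on chromosome 19, bases 46206389 to 46222815 of mm9, overlaps Pitx3.

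Among the regulators, Prdm16 was at 2.58, 1.86 and 2.21 FPKM in WT WAT and at 1.13, 0.985 and 2.23 FPKM in MED13cTg WAT. MED13cTg replicates 1 and 2 were below all WT mice and replicate 3 was within their range. The log2 fold change was -0.42 ± 0.34 (limma adjusted p = 0.738), and without those 2 libraries it was 0.01. Prdm16 lies on chromosome 4, bases 153690234 to 154010982 of mm9, a span that also holds the entry 5930403L14Rik.

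Ebf2 was at 0.580, 0.983 and 0.816 FPKM in WT WAT and at 0.588, 6.62 and 0.747 FPKM in MED13cTg WAT. A single mouse, MED13cTg replicate 2, stood apart, and the other 2 lay within the WT range. The log2 fold change was 0.63 ± 0.69 (limma adjusted p = 0.740), and the gene reached a mean of 1 FPKM only through that mouse, so it was not tested without it. Replicate 2 was also the library with the largest sum of 8 fibroblast and fat progenitor markers, 2316 FPKM against 193 to 1073 in the other 5. The list did not move as one: 5 of the 8 were above all WT mice there, while the progenitor markers Pdgfra (11.7 against 23.2 to 33.0 FPKM) and Dpp4 (6.16 against 19.5 to 20.9 FPKM) were below them. The span of Ebf2 on chromosome 14, bases 67852129 to 68048604 of mm9, also holds 4930438E09Rik and Gm6878.

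The beige markers stayed low. Tbx1 was at 1.50, 1.09 and 0.805 FPKM in WT WAT and at 3.41, 0.627 and 0.694 FPKM in MED13cTg WAT, where replicate 1 was the highest of the 6 libraries and the other 2 the lowest. Its log2 fold change was 0.12 ± 0.51 (limma adjusted p = 0.935) and turned to -0.32 without MED13cTg replicates 1 and 2. Tmem26 lay between 0.261 and 0.422 FPKM in WT and between 0.143 and 0.347 FPKM in MED13cTg WAT. Fitted with no filter, its log2 fold change was -0.08 ± 0.10 (limma adjusted p = 0.759). The genes lie on chromosome 16, bases 18581806 to 18587062 (Tbx1), and chromosome 10, bases 68186494 to 68245402 (Tmem26), of mm9, with no overlapping entry.

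**Figure D3:**
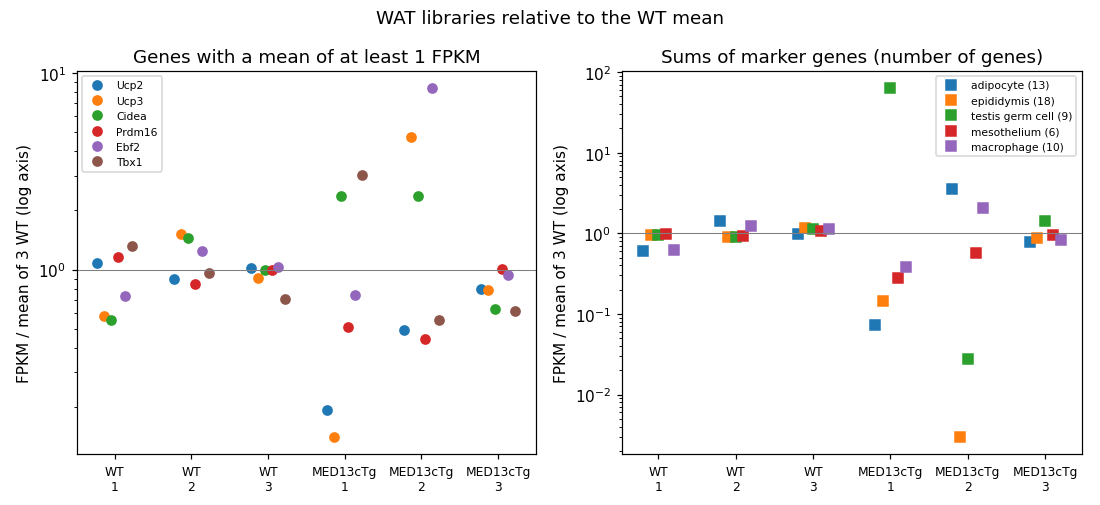
Left, the 6 genes that averaged 1 FPKM or more in WAT, each divided by its mean over the 3 WT libraries (log axis, 1 point per gene and library). Right, the summed FPKM of adipocyte, epididymis, testis germ cell, mesothelium and macrophage markers on the same kind of axis; MED13cTg replicates 1 and 2 stand apart in both panels, and replicate 3 stays near the WT libraries.

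Seen by library, the plot of genes beside marker sums shows that for each of the 6 genes the library farthest from the WT mean was MED13cTg replicate 1 or 2. In replicate 3, each of the 6 genes had a level within the range of the WT mice or below it: Ucp3, Cidea, Prdm16 and Ebf2 lay within it, and Ucp2 and Tbx1 below it. Replicate 1 combined the lowest Ucp2 and Ucp3 with the highest Tbx1 and Cidea, and replicate 2 combined the highest Ucp3 and Ebf2 with the lowest Prdm16 and Tbx1. Of the 6 genes, Cidea was above all WT mice in both of these libraries, and Ucp2 and Prdm16 were below all WT mice in both.

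WAT was also read with 11 markers of brown adipocytes, which include Ucp1, Cidea and Elovl3. Their sum was 77.7, 206 and 169 FPKM in WT WAT and 233, 459 and 135 FPKM in MED13cTg WAT. Different entries carried it: in MED13cTg replicate 1 the entry that joins Cpt1b with BC090627 and Chkb was 183 FPKM and Cox8b 4.86 FPKM, and in replicate 2 Cox8b was 362 FPKM. Of the 11, 7 were above all WT mice and 2 below them in MED13cTg replicate 1. In replicate 2 it was 8 above and 0 below, and in replicate 3 it was 1 above and 0 below. Zic1 was at most 0.0459 FPKM, and Lhx8 was listed at 0 in 3 of the 6 WAT libraries and was at most 0.0256 FPKM in 2 others. In MED13cTg replicate 1 Lhx8 was 0.713, Otop1 1.60 and Dio2 1.13 FPKM, each the highest of the 6 WAT libraries, and these 3 were picked out after their values were seen.

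In ventricles the same 9 genes stood at different levels, and the genotypes lay close together. Ucp2 was at 109 ± 11.2, Ucp3 at 68.1 ± 11.4 and Cidea at 46.4 ± 6.68 FPKM in WT ventricles (SD, n = 3), and the WT ranges of these neighbours did not overlap. Prdm16 followed at 3.22 ± 0.33 and Ebf2 at 2.31 ± 0.21 FPKM, also apart. Tbx1 at 0.633 ± 0.192 and Ucp1 at 0.386 ± 0.075 FPKM overlapped, as did Elovl3 and Tmem26, each at most 0.101 FPKM in WT and listed at 0 in some libraries.

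With WT ventricles and WT WAT side by side, in tables made separately and therefore with no test, Ucp3 was 11.9-fold and Cidea 12.2-fold higher in ventricles by the ratio of means. Ebf2 was 2.91-fold and Prdm16 1.45-fold higher there, and Ucp2 was at 0.520 of its WAT level. These ratios compare whole libraries and not fat cells. In WT WAT the epididymis sum was 93588 to 120792 FPKM beside an adipocyte sum of 13876 to 32954 FPKM. In MED13cTg WAT replicate 2, with an epididymis sum of 315 FPKM, Ucp3 was 26.9 and Cidea 8.94 FPKM. Over all 12 libraries, Ucp3, Cidea and Prdm16 were higher in every ventricle library than in every WAT library, Tmem26 was lower, and the other 5 genes overlapped. The brown adipocyte sum was 12501 to 18083 FPKM in ventricles, nearly all of it Cox7a1 and Cox8b, subunits of cytochrome oxidase that heart muscle also expresses, while Lhx8 was listed at 0 in all 6.

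Between genotypes in ventricles, 5 of the 9 genes reached a mean of 1 FPKM and were tested beside 12589 genes in all. With limma 0 of the 5 passed, and 0 had an unadjusted p under 0.05. Of all genes tested 0.0556% passed, which is 7 genes, and 595 had an unadjusted p under 0.05. Without overlap between genotypes, 0 of the 5 were higher and 0 lower in MED13cTg ventricles, against 3.46% and 5.85% of all genes tested. The standard errors were 0.13 to 0.19 on the log2 scale, smaller than the 0.34 to 1.02 in WAT.

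Ucp2 was at 120, 110 and 97.4 FPKM in WT ventricles and at 92.5, 86.0 and 134 FPKM in MED13cTg ventricles. The highest and the lowest library were both MED13cTg, and the log2 fold change was -0.09 ± 0.19 (limma adjusted p = 0.971). Ucp3 was at 56.9, 67.8 and 79.7 FPKM in WT mice against 66.5, 72.2 and 69.8 FPKM in MED13cTg ventricles. All MED13cTg mice lay inside the WT range, and the log2 fold change was 0.04 ± 0.14 (limma adjusted p = 0.979).

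The uncoupling protein sum was 177, 178 and 178 FPKM in WT ventricles and 159, 159 and 205 FPKM in MED13cTg ventricles. Ucp2 made up 54.2% to 67.7% and Ucp3 32.2% to 45.5% of it. Ucp1, at 0.271 to 0.540 FPKM over the 6 libraries, made up at most 0.340%.

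Cidea was at 52.9, 39.5 and 46.8 FPKM in WT ventricles and at 45.6, 64.3 and 45.0 FPKM in MED13cTg ventricles. Replicate 2 of the MED13cTg mice was the highest of the 6, and the other 2 lay within the WT range. The log2 fold change was 0.14 ± 0.18 (limma adjusted p = 0.966), and it was -0.02 without that mouse, whose ventricle library also had the highest sum of 6 atrial myocyte markers, 2627 FPKM against 642 to 1261 in the other 5. The sum of 13 adipocyte markers was highest in that library too, at 5162 FPKM against 3786 to 4746 in the other 5. Of the 13, 7 were above all WT mice there and 3 below them. Fabp4 alone was 4261 FPKM of that sum, while Adipoq was 10.9 and Plin1 1.24 FPKM. Over the 6 ventricle libraries the Pearson correlation of Cidea on log2(FPKM + 1) was 0.861 with the adipocyte sum and 0.796 with the atrial sum. It was also 0.852 with the sum of 5 smooth muscle markers and 0.794 with the fibroblast and fat progenitor sum. The part of atrial tissue, of fat cells or of other cells was not tested.

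Prdm16 was at 2.93, 3.58 and 3.14 FPKM in WT ventricles and at 3.67, 3.12 and 2.84 FPKM in MED13cTg ventricles, and its log2 fold change was -0.0044 ± 0.13 (limma adjusted p = 0.999). Ebf2 was at 2.07, 2.46 and 2.40 FPKM in WT mice against 2.05, 1.77 and 3.00 FPKM in MED13cTg ventricles, with a log2 fold change of -0.03 ± 0.17 (limma adjusted p = 0.985). The genotypes overlapped for both genes. Tbx1 was at 0.428 to 0.810 FPKM in WT mice against 0.495 to 0.589 FPKM in MED13cTg ventricles, and Tmem26 and Elovl3 were at most 0.0694 and 0.101 FPKM over the 6 libraries.

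**Figure D4:**
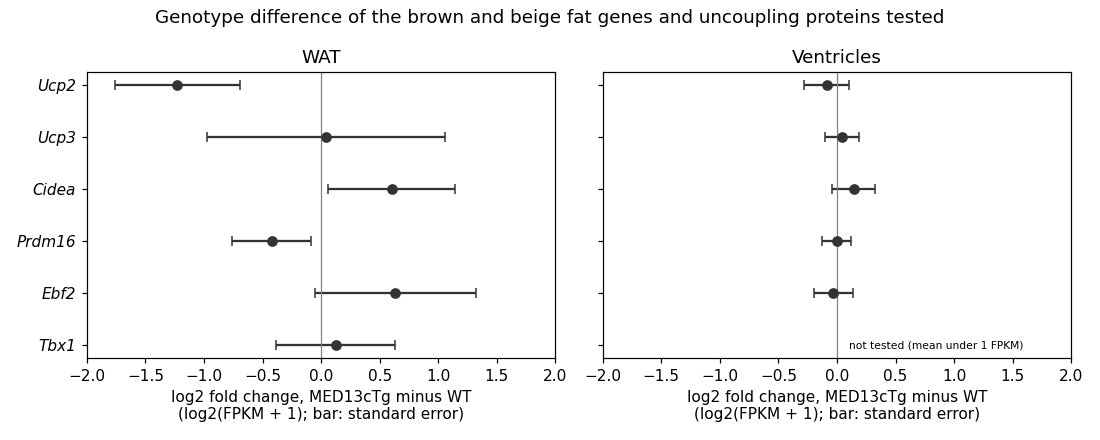
Log2 fold change of MED13cTg minus WT with its standard error, from limma on log2(FPKM + 1), for the genes tested in WAT (left, 6 genes) and ventricles (right, 5 genes). The WAT bars are wider than the ventricle bars, and the Ucp2 estimate in WAT, -1.23, lies farthest from 0.

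The other genes of the brown and beige programme were read from 11 lists of 113 genes. In WAT 91 of them were tested, 0 passed with limma and 2 had an unadjusted p under 0.05, beside 187 of all 14967 genes. Without overlap, 1 was higher and 4 were lower in MED13cTg WAT, 1.10% and 4.40% of those tested, beside the 4.88% and 7.8% of all genes given above. The gene that was higher was Slc27a2, a fatty acid transporter, and those that were lower were Gamt, Ckb, S100b and Elovl4; the genes with an unadjusted p under 0.05 were Slc27a2 and Gamt, and Slc27a2, S100b and Elovl4 are named after their values were seen. The median log2 fold change of the 91 was -0.21, against 0.012 over all genes tested.

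Of 6 other mitochondrial carriers, the ADP/ATP exchangers Slc25a4 and Slc25a5 and the carnitine carrier Slc25a20 were the highest in WAT, with log2 fold changes of -0.46 ± 0.44, -0.41 ± 0.41 and 0.16 ± 0.38. Pparg, the receptor that drives fat cell differentiation, went from 7.09 FPKM in MED13cTg replicate 1 to 444 FPKM in replicate 2, against 50.3 to 103 FPKM in WT. Cebpa, its partner factor, ran from 9.0 to 414 FPKM in the same 2 libraries. Both of these extremes were in the mice with the lowest and the highest adipocyte sums. Ctbp1, the third of its list by level, had a log2 fold change of -0.55 ± 0.41. Of the adrenergic and lipolysis genes, Gnas, Lipe and Pnpla2 were the highest, with log2 fold changes of -0.73 ± 0.51, -0.18 ± 1.12 and 0.24 ± 0.87. Gnas encodes the G protein subunit that carries the adrenergic signal, and Lipe and Pnpla2 the main lipases of fat cells. The lipases were lowest in MED13cTg replicate 1 and highest in replicate 2.

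The list of genes selective for brown fat was led in WAT by the Plin5, Cox8b and Cpt1b entries, with log2 fold changes of -0.67 ± 1.49, -0.35 ± 1.59 and 1.16 ± 0.76. The Cpt1b entry joins BC090627 and Chkb, and the Plin5 entry joins Plin4, so their reads may come from either gene. The beige marker list was led by Car4, Cited1 and Slc36a2, with log2 fold changes of -0.72 ± 0.82, -1.44 ± 1.50 and -0.54 ± 1.27. Cited1 was at 37.1 to 50.1 FPKM in WT, at 67.8 and 44.2 FPKM in MED13cTg replicates 1 and 3, and at 0.406 FPKM in replicate 2. Replicate 2 was almost without epididymis markers. Replicate 1 also had a low epididymis sum, 15173 against 93588 to 120792 FPKM in WT, but the highest Cited1. The part of the epididymis was not tested. Retn, Nnat and Slc7a10, which led the white fat list, had negative log2 fold changes of -0.84 ± 1.67, -0.95 ± 1.41 and -0.63 ± 1.31, and in each the lowest and the highest library were MED13cTg.

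Creatine and calcium cycling offer heat production without UCP1. Gamt, which makes creatine, was at 373, 338 and 402 FPKM in WT WAT and at 73.7, 55.2 and 313 FPKM in MED13cTg WAT. Ckb, the brain-type creatine kinase, was at 116, 103 and 114 FPKM in WT mice against 14.5, 64.6 and 92.3 FPKM in MED13cTg WAT. As with Ucp2, all MED13cTg mice lay below all WT mice, and neither passed (log2 fold changes -1.76 ± 0.68 and -1.30 ± 0.69, limma adjusted p = 0.738 for each). Atp2a2, the calcium pump and the second of the list by level, had a log2 fold change of -0.40 ± 0.25, with overlap. Other genes of the list ran the other way: Gatm, the other gene of creatine synthesis, was at 4.70 to 6.02 FPKM in WT WAT and at 82.0, 15.1 and 5.47 FPKM in MED13cTg WAT (log2 fold change 1.74 ± 0.92), and Ckmt2 had a log2 fold change of 1.30 ± 0.92. Both are named after their values were seen, and of the 9 genes tested 3 had a positive and 6 a negative fold change.

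The families of 4 of the 9 genes were read in the same way in WAT. Of the elongases other than Elovl3, Elovl5, Elovl6 and Elovl2 were the highest, with log2 fold changes of 0.32 ± 0.29, -1.31 ± 0.67 and -0.02 ± 1.57. Cidec, the CIDE protein of white adipocytes, was at 313 to 862 FPKM in WT and from 32.6 to 2174 FPKM in MED13cTg WAT, and Cideb had a log2 fold change of -0.47 ± 0.33. Ebf1, the relative of Ebf2 with the highest level, shared its pattern of 1 high mouse: it was at 1.80 to 3.10 FPKM in WT, at 0.939 and 1.83 FPKM in MED13cTg replicates 1 and 3 and at 21.7 FPKM in replicate 2. Ebf3 was also highest there, at 7.31 against 1.06 to 2.10 FPKM in WT, and Ebf4 was lowest there, at 0.555 against 1.50 to 2.45 FPKM. Tbx2 and Tbx3, the T-box factors with the highest levels, had log2 fold changes of -1.42 ± 0.66 and -1.08 ± 0.57, and Tbx22 one of -0.06 ± 0.59. None of these passed.

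In ventricles 83 of the 113 genes were tested, 0 passed with limma and 6 had an unadjusted p under 0.05. Over all 12589 genes tested, 595 had an unadjusted p under 0.05. Without overlap, 4 were higher and 8 lower in MED13cTg ventricles, 4.82% and 9.64% of those tested, beside 3.46% and 5.85% of all genes. The higher ones were Fabp3, Hspb7, Klf11 and Tbx18, of which the last 3 are named after their values were seen. Over the 83 genes the median log2 fold change was -0.0085, against -0.014 over all genes tested. Slc25a5 was at 354, 235 and 253 FPKM in WT mice against 231, 215 and 170 FPKM in MED13cTg ventricles, with a log2 fold change of -0.44 ± 0.20 (limma adjusted p = 0.966). Ryr2, the calcium release channel, was at 365 to 473 FPKM in WT mice against 284 to 354 FPKM in MED13cTg ventricles (log2 fold change -0.42 ± 0.16, limma adjusted p = 0.966). Fabp3, the heart fatty acid binding protein, was at 8888 to 10329 FPKM in WT mice against 10531 to 12676 FPKM in MED13cTg ventricles (log2 fold change 0.26 ± 0.19, limma adjusted p = 0.966).

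The other genes that led their lists in ventricles had log2 fold changes between -0.38 (Tbx5) and 0.44 (Mest). They were the carriers Slc25a4 and Slc25a20, the adrenergic and lipolysis genes Gnas, Pnpla2 and Prkaca, and the transcriptional regulators Esrra, Ctbp1 and Cebpb. From the brown, beige and white fat lists they were Cox8b, Cox7a1, Car4, Sp100, Slc36a2, Mest, Tcf21 and Nnat, and from calcium and creatine cycling Atp2a2 and Ckmt2. The family members were Elovl5, Elovl1, Cidec, Cideb, Ebf1, Ebf3, Tbx20, Tbx2 and Tbx5. Of these Esrra alone had no overlap, at 90.3 to 95.0 FPKM in WT and 86.4 to 87.7 FPKM in MED13cTg ventricles, with a log2 fold change of -0.10 ± 0.10.

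The other 5 genes with an unadjusted p under 0.05 in ventricles were picked out after their values were seen. Ppargc1a, the coactivator of the Ucp1 programme, was at 63.3, 55.5 and 44.6 FPKM in WT mice against 33.0, 30.6 and 47.4 FPKM in MED13cTg ventricles, with overlap. Kcnk3, Cited1 and Agt were lower and Hspb7 higher in MED13cTg ventricles without overlap, with log2 fold changes of -0.46, -0.67, -0.76 and 0.57. All had an adjusted p of 0.902 or more with limma.

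**Figure D5:**
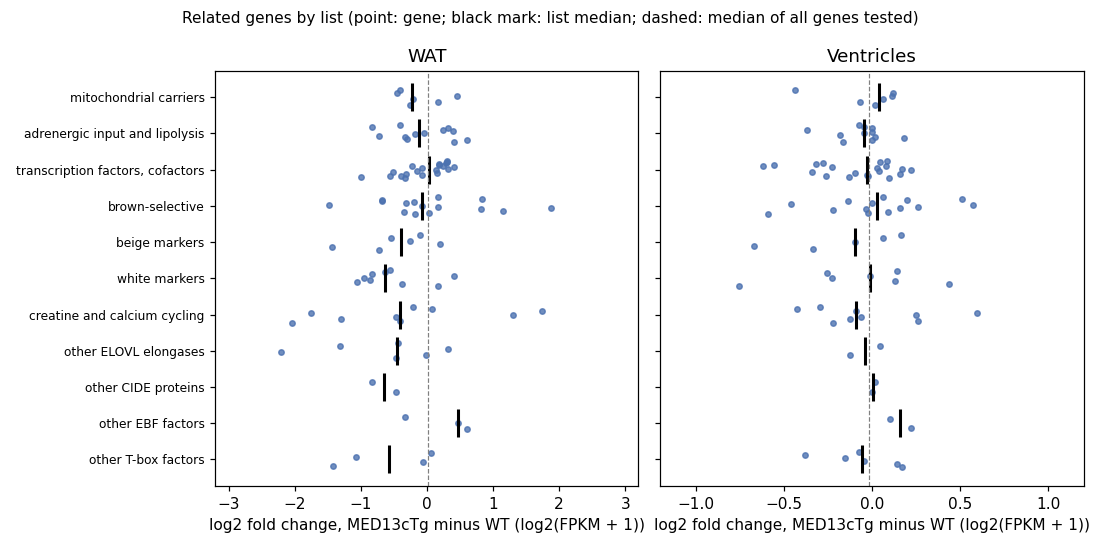
Log2 fold change of MED13cTg minus WT for every tested gene of the 11 related lists (points), with each list's median (black mark) and the median of all genes tested (dashed line), in WAT (left) and ventricles (right, on a narrower axis). Points spread from -2.20 to 1.88 in WAT and from -0.76 to 0.60 in ventricles, around list medians near the dashed line in ventricles.

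To place each gene among all others, the genes with the most similar pattern were found by the Pearson correlation of log2(FPKM + 1) over the 6 libraries of a tissue, as a description. In WAT the genes most like Ucp2 were Ier2, Btbd6 and Ppapdc2 (0.999, 0.999 and 0.998), and 771 of 14967 genes had a correlation with it above 0.95. The genes most like Ucp3 were 1810011H11Rik, Fli1 and Syap1 (1103 genes above 0.95). Those most like Cidea were Slc25a26, 4930420K17Rik and Nfu1 (58 genes), those most like Prdm16 were Art4, Esrrg and Rlim (661), those most like Ebf2 were Fut10, Ppp3cb and Tep1 (322), and those most like Tbx1 were Gar1, Pilra and Gm216 (430). Cidea thus had the fewest genes with a like pattern in WAT. All 6 points share the 2 libraries that stood apart, and no p-value is given.

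In ventricles fewer genes passed 0.95 than in WAT for Ucp2, Ucp3, Prdm16 and Ebf2, and more did for Cidea. The genes most like Ucp2 were Dpf2, Cnnm3 and Mfsd2b, with 5 of 12589 genes above 0.95, and those most like Ucp3 were Neil2, Mto1 and the joined entry Hnrnpd,Hnrpdl, with 18. Enoph1, Srp19 and Vac14 were most like Cidea (68 genes), Gxylt2, Tfpi and Tbx20 most like Prdm16 (4 genes), and Atn1, Samd8 and Usp19 most like Ebf2 (23 genes).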

How the data were processed

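RNA of 12 libraries, 3 mice per genotype in WAT and in ventricles, was isolated with Trizol and prepared with the TruSeq kit from 1 ug of total RNA, per the labels. The authors aligned reads with TopHat and deposited FPKM per gene from Cufflinks, both at default settings, in 1 table per tissue; versions were not given in the sources used here, and the build is mm9 by the submitters' processing notes. Groups came from the sample titles. The authors' means and folds and 1 unnamed column of values were not used. Of the 23042 entries of each, 341 join several symbols, and overlapping genes cannot be told apart by strand. Low FPKM rests on few fragments, and a value of 0 is reported as listed at 0.

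Each tissue was fitted alone on log2(FPKM + 1), for genes averaging 1 FPKM or more over its 6 libraries, with limma 3.58.1 in R 4.3.3 (lmFit, eBayes with a mean-variance trend, no covariate) and Benjamini-Hochberg adjustment at 0.05, over all genes tested. The steps were tested on simulated data. Other values used Python 3.11.15, numpy 2.4.6 and pandas 2.3.3, with plots from matplotlib 3.10.9. The 9 genes and all gene lists were chosen with earlier results of these data known. Of each related list the 3 genes with the highest mean FPKM in the tissue were named, besides any that passed, and others only where said. Deposited locus starts were raised by 1 base, because end minus start equalled the RefSeq length in 6746 of 20160 loci compared.

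Replicate numbers in the titles are shared between genotypes. In WAT the deviations of same-numbered libraries from their group means correlated at 0.347, 0.304 and 0.144, all above 0.1. WT replicate 3, however, correlated better with MED13cTg replicate 2 (0.168) than with its own number. These values do not settle whether the mice are paired. The main fit held no block, and a fit with a replicate block was run beside it. In WAT the block changed the standard error of Ucp3 from 1.02 to 0.63 and that of Prdm16 from 0.34 to 0.44. With the replicate block 0 genes and 0 of the 6 tested here passed in WAT, against 2 and 0 without it. Alternatives changed the pseudocount (0.1), the filter (none, or 5 FPKM), the scaling (median of ratios, or quantiles), the variance trend (none) and the library weights (limma array weights), added the block, or left out each library. Leaving out both MED13cTg WAT replicates 1 and 2 was added after seeing the data.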

Additional observations from a re-analysis of the deposited data

How the results depend on the processing

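Of the 9 genes, 0 passed limma's threshold under each of 15 alternatives in WAT and 14 in ventricles. All 9 were tested only with no filter, and the other alternatives tested 3 to 6 of them in WAT and 3 to 5 in ventricles. Of 152 fold changes of these genes under an alternative, 131 kept their sign and 21 turned. The number of all genes that passed in WAT, 2, was 0 with no filter, 0 with array weights, 0 with the replicate block, 1 to 5 with 1 library left out and 19 without MED13cTg replicates 1 and 2, where the single MED13cTg library was assumed to vary like the WT libraries. In ventricles 7 genes passed, against 3 with a filter at 5 FPKM, 15 with array weights, 4 with the replicate block and 4 to 9 with 1 library left out. There the same-numbered libraries correlated at 0.085, -0.192 and 0.140, so the numbers gave no sign of pairing, and not every library correlated best with its own number. The block turned the call of none of those of the 9 genes that were tested in either tissue.

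In WAT the log2 fold change of Ucp3 (0.04) was -0.16 with a pseudocount of 0.1, -0.092 with quantile normalization, -1.01 to 0.96 with 1 library left out and -0.21 without MED13cTg replicates 1 and 2. That of Tbx1 (0.12) was -0.11 with array weights and -0.32 without those 2 libraries, which turned Cidea to -0.44 and Prdm16 to 0.012. In ventricles Prdm16 (-0.0044) was 0.0012 with median-of-ratios scaling and -0.082 to 0.060 with 1 library left out, Ucp2 (-0.09) was 0.0017 with quantile normalization and -0.28 to 0.037, and Ucp3 (0.04) was -0.016 with array weights and -0.081 to 0.16. Ebf2 there ran from -0.19 to 0.080 and Cidea from -0.024 to 0.24. The cause of these turns was not tested. Each gene had 1 entry per table, so summing entries could not change a value, and a gene under an alternative's filter gave no value there. The unknown depth limits the genes under 1 FPKM most.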
